A study of Mus musculus with 32 samples.

Results

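The genes described here are 9 genes of the Hedgehog pathway, taken by name out of the 23154 genes of the expression tables. They are the ligand gene Shh, the receptor genes Ptch1 and Smo, the inhibitor gene Hhip, the transcription factor genes Gli1, Gli2 and Gli3, and the forkhead factor genes Foxf1 and Foxf2. All 9 were found in every table. The samples, 32 in number with 1916 single cells, came from 8 organs of 7 mouse embryos of the C57BL/6J strain: intestine, lung, liver, skin, somite, heart, hindbrain and forebrain. There were 3 embryos of stage E9.5, and E10.5 and E11.5 had 2 each. The labels name no treatment and no allele. E9.5 embryo 2 was labelled female and the other embryos male. The labels give HiSeq 2500 for E9.5 embryos 1 and 2 and HiSeq 4000 for the others, and in E9.5 embryo 3 lung was pooled with liver and skin was pooled with intestine and somite.

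Hedgehog ligands are secreted proteins that bind the receptor Ptch1, which otherwise holds the membrane protein Smo inactive. Released Smo acts through the primary cilium on the Gli factors, of which Gli2 and Gli3 carry the first response and Gli1 is itself switched on by the pathway. Ptch1 and Hhip, a membrane protein that binds the ligand, are also response genes and limit the signal. In the gut and lung the ligand is known to come from the epithelium and to act on the mesenchyme around it, where Foxf1 and Foxf2 are forkhead factors linked to the response.

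Cells were grouped by the annotation of the study into 12 sets of 1440 cells. These were epithelial (Epi) and mesenchymal (Mes) cells of intestine, liver, lung and skin, neuronal cells of forebrain and hindbrain, and mesoderm-derived cells of somite and heart. The study assigned its major groups from transcription factor activity that it inferred from the expression of many genes. It does not say that these 9 were left out, so a difference between sets is not taken as independent of the assignment. Cells of the 12 sets held 21397 to 2404946 unique molecular identifiers (UMIs), with a median of 287567. Over these cells, the blood cells and the neuronal cells of somite, the median was 568446.5 UMIs for HiSeq 2500 and 241728.5 for HiSeq 4000. The replicate was the embryo, and its level was the mean over its cells, at least 3, of log2(TPM/10 + 1), where TPM is UMIs per 1000000 UMIs of the cell. Levels below are on this scale, with SD over embryos, and are compared between sets but not between genes. The division by 10 makes differences of low genes smaller than their fold changes. The summed level of 6 epithelial markers was 24.0 to 37.1 in the Epi embryos of intestine, lung and skin and 14.1 to 25.1 in Epi liver, against 3.12 to 14.2 in the Mes sets. The summed level of 5 mesenchymal markers was 11 to 26.8 in the Mes sets, up to 4.21 in Epi intestine, liver and lung, and 2.72 to 10.7 in Epi skin. Mes liver, which had E9.5 cells of 3 embryos only, also held markers of other cell types. Of 5 cardiomyocyte markers 3 had a mean level of at least 1 there (sum 5.75 to 16.1, Myl7 at 6.23, Nppa below 0.05), and so did 3 of 4 hepatoblast markers (sum 2.81 to 11, against 27.2 to 36.9 in Epi liver). Their part in the Mes liver results was not tested. In 14 libraries the last pair of cell columns held identical counts, and each such pair was counted as 1 cell.

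In mm10 (GRCm38) coordinates of GENCODE M21, Shh lies on chromosome 5 at 28456815-28467256 and Ptch1 on chromosome 13 at 63508328-63573598, both on the minus strand, and Smo on chromosome 6 at 29735503-29761365 on the plus strand. Gli1 is at chromosome 10, 127329882-127341974, Gli2 at chromosome 1, 118834132-119053619, and Hhip at chromosome 8, 79965851-80058006, all on the minus strand. Gli3, at chromosome 13, 15463235-15730026, Foxf2, at chromosome 13, 31625816-31631403, and Foxf1, at chromosome 8, 121084386-121088144, are on the plus strand. Shh overlaps 9530036O11Rik and Gli1 overlaps Arhgap9, in each case on the opposite strand and both in the tables, and since the strand setting of the counting is not given in the sources used here, their reads cannot be told apart. Promoters, 250 bases before to 50 after the start, were taken from RefSeq (GRCm38.p6) and matched 6 of the 9 genes. Those of Gli2 (chr1:119053570-119053869, minus strand), Hhip (chr8:80057959-80058258, minus strand) and Foxf2 (chr13:31625566-31625865, plus strand) are shown because, of the genes with a promoter, these 3 were lower in Epi than in Mes cells of the intestine without overlap of the groups. Capitals mark the GC box GGGCGG or its reverse complement CCGCCC.
Gli2: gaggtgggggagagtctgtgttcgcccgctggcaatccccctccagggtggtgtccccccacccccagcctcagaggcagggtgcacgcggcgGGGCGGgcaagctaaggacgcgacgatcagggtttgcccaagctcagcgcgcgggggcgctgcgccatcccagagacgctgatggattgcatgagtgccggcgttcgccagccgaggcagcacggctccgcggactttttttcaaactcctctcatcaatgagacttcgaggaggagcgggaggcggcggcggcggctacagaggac
Hhip: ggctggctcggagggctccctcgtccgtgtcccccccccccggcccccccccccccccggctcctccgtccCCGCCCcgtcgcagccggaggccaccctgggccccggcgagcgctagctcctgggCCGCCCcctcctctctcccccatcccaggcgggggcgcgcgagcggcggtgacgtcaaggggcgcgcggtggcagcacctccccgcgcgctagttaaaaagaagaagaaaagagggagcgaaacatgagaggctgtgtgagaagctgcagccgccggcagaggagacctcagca
Foxf2: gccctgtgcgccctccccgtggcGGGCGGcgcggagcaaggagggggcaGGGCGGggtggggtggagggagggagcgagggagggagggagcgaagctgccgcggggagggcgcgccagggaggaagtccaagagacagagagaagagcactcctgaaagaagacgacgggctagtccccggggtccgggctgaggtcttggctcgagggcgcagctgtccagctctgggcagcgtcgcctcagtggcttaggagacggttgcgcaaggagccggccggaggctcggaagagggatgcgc
The GC box was present in 5 of the 6 promoters, all but that of Smo, and in 35.7% of 32851 mouse promoters of the same length. The Gli motif GACCACCCA, searched on both strands, was in none of the 6 windows and in 0.253% of the 32851.

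Shh, the ligand, was high in the epithelium of intestine and lung and low in the other 10 sets. In Epi intestine its level was 3.16 ± 0.82 (SD, n = 7), with a lowest embryo of 2.10, a median of 3.54 and a highest of 4.22. In Epi lung it was 2.29 ± 0.89 (n = 6), from 1.30 through a median of 2.13 to 3.85. The embryos of these sets overlap in range, and none of them overlaps with any other set. The next levels were 0.43 ± 0.39 in Mes intestine (n = 7, 0.03 to 1.0), 0.22 ± 0.19 in Mes lung (n = 6, 0.04 to 0.58) and 0.10 ± 0.16 in hindbrain (n = 6, 0 to 0.35), whose ranges overlap. Epi liver and Epi skin lay at 0.01 and 0.00, and in Mes liver no UMI was found in 76 cells, which allows a share of up to 3.95%. A Shh UMI was seen in 98 of 109 Epi intestine cells (89.9%, 95% Wilson interval 82.8 to 94.3) and in 44 of 52 Epi lung cells (84.6%, 72.5 to 92.0). Blood cells, which should lack Shh, gave 6.91% of 246 cells at a median of 437877 UMIs, and 0.441% once every cell was thinned to 100000 UMIs. After the same thinning the shares were 84.7% in Epi intestine, 73.9% in Epi lung, 27.0% in Mes intestine and 9.91% in Mes lung. These pooled shares of the 2 mesenchymal sets lay above that of the blood cells and far below those of the epithelium. Unthinned, the share by embryo was 0 to 23.5% in blood cells, 11.1 to 100% in Mes intestine and 10.7 to 50% in Mes lung. The study took most of its blood cells from liver, so they give no background share for the intestine and lung libraries. Of the 13 Mes intestine cells with Shh at a level of at least 1, 12 also expressed the epithelial gene Epcam at that level, against 32 of the other 61, and 12 expressed Foxf1. Mean Epcam was 1.37 in Mes intestine and 6.41 in Epi intestine, and its part in the Shh level of Mes intestine was not tested.

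**Figure D1:**
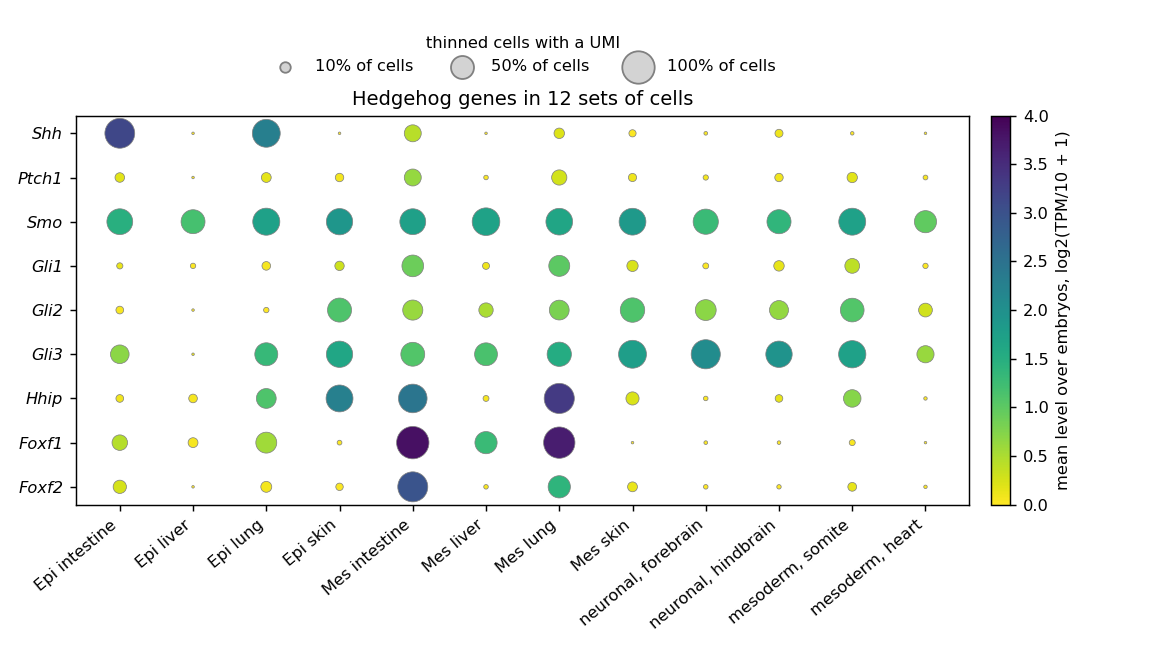
Mean level over embryos (colour, log2(TPM/10 + 1)) and share of cells with a UMI after thinning to 100000 UMIs (dot size) for the 9 genes (rows) in 12 sets (columns). Shh is highest in Epi intestine (3.16) and Epi lung (2.29), Foxf1 in Mes intestine (3.84) and Mes lung (3.68), and Smo lies between 0.98 and 1.90 in all 12 sets.

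Hhip, which binds and holds back the ligand, was high in 3 sets of differing kind. Its level was 3.32 ± 0.99 in Mes lung (n = 6, lowest 2.37, median 2.99, highest 4.95), 2.44 ± 1.24 in Mes intestine (n = 7, 0.31, 2.88 and 3.69) and 2.27 ± 0.62 in Epi skin (n = 6, 1.19, 2.47 and 2.94). The ranges of these sets overlap. Epi lung followed at 1.12 ± 1.05 (n = 6, 0.12 to 2.93) and somite at 0.72 ± 0.22 (n = 7, 0.45 to 1.0), while Mes skin was at 0.23 ± 0.20 (n = 6, 0 to 0.52). Hindbrain was at 0.15 and the remaining sets at 0.08 or below.

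Ptch1, the ligand receptor, was low throughout. Mes intestine had the highest mean level, 0.64 ± 0.36 (n = 7, lowest 0.21, median 0.58, highest 1.15), then Mes lung at 0.27 ± 0.17 (n = 6, 0.06 to 0.48) and somite at 0.18 ± 0.10 (n = 7, 0.09 to 0.36), with overlapping ranges. After thinning, 27.0% of Mes intestine cells and 21.6% of Mes lung cells held a Ptch1 UMI, against 4.41% of blood cells. Unthinned, these shares were 40.5%, 24.8% and 12.6%. Smo, the signal transducer, was spread evenly, with set means from 0.98 in heart to 1.90 in Epi skin, and 0.39 in blood cells.

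The Gli factors differed in where they were detected. Gli1, the response factor, led in Mes lung at 1.0 ± 0.33 (n = 6, lowest 0.65, median 0.90, highest 1.56) and Mes intestine at 0.90 ± 0.54 (n = 7, 0.53, 0.59 and 1.88). In Mes intestine, E9.5 embryo 1 (1.88) and E10.5 embryo 2 (1.44) stood above the other 5 embryos, which lay between 0.53 and 0.76. Somite (0.39 ± 0.28), Epi skin (0.31 ± 0.21) and Mes skin (0.24 ± 0.19) followed with overlapping ranges, and all other sets were at 0.16 or below. Gli2, the main activator, was at 1.12 ± 0.26 in Mes skin, 1.11 ± 0.46 in Epi skin, 1.08 ± 0.17 in somite and 0.81 ± 0.06 in Mes lung. It was between 0.51 and 0.69 in forebrain, hindbrain, Mes intestine and Mes liver, at 0.29 in heart, and at 0.04 or below in the epithelium of intestine, liver and lung. Gli3, which acts mainly as a repressor, was found in nearly every set. Its level was 2.07 ± 0.97 in forebrain and 1.95 ± 0.86 in hindbrain, between 1.09 and 1.78 in the Mes sets, somite, Epi skin and Epi lung, 0.69 in Epi intestine, 0.62 in heart and 0.12 in Epi liver.

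Foxf1 and Foxf2 marked the mesenchyme of gut and lung. Foxf1 was at 3.84 ± 0.28 in Mes intestine (n = 7, lowest 3.5, median 3.83, highest 4.34) and 3.68 ± 0.38 in Mes lung (n = 6, 3.25, 3.6 and 4.2), with overlapping ranges, and 98.7% and 95.2% of the cells held a UMI. In Mes liver the 3 embryos were at 0.28, 1.30 and 2.30. It was at 0.58 ± 0.42 in Epi lung and 0.44 ± 0.41 in Epi intestine, and at 0.05 or below in the other sets. In heart no Foxf1 UMI was found in 236 cells, which allows a share of up to 1.27%. Foxf2 was at 2.96 ± 0.76 in Mes intestine (n = 7, lowest 1.49, median 2.99, highest 3.88) and 1.40 ± 0.29 in Mes lung (n = 6, 1.13, 1.29 and 1.84). Mes liver, in contrast, had Foxf2 at 0.04, and the highest of the other sets was Epi intestine at 0.26.

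**Figure D2:**
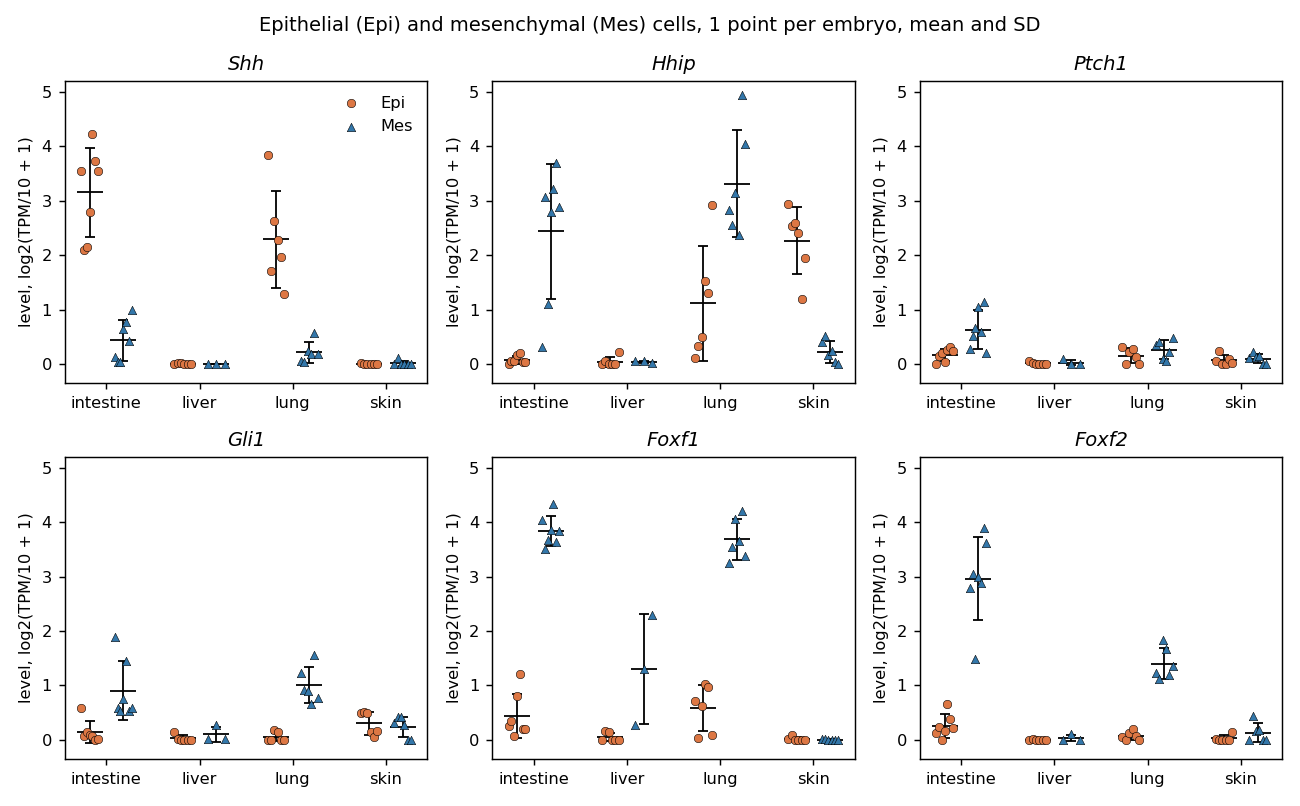
Level per embryo (y axis, log2(TPM/10 + 1)) of 6 genes in Epi (circles) and Mes (triangles) cells of 4 organs (x axis), with mean and SD. Shh is higher in Epi and Foxf1 and Foxf2 in Mes cells of intestine and lung, while Hhip is higher in Mes cells of intestine and lung but in Epi cells of skin, where the 6 Epi embryos lie between 1.19 and 2.94 and the 6 Mes embryos between 0 and 0.52.

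To compare epithelium with mesenchyme within an organ, the embryo levels were tested with limma across 15608 genes, with a call where the adjusted p was below 0.05. Of 36 comparisons of a Hedgehog gene in an organ, 17 were called. In the intestine 7 of 9 genes were called, where 10.7% of all genes were called. Shh was higher in Epi cells by 2.72 (SE 0.26, adjusted p = 2.40e-11, 7 of 7 embryos). The other 6 called genes were lower in Epi cells. Foxf1 fell by 3.40 (SE 0.20, adjusted p = 2.03e-17), Foxf2 by 2.70 (SE 0.19, 1.38e-15) and Hhip by 2.36 (SE 0.38, 9.97e-06), each in 7 of 7 embryos and without overlap of the groups. Gli1 fell by 0.76 (SE 0.15, adjusted p = 0.000188) and Gli2 by 0.57 (SE 0.12, 0.000722), both in 7 of 7 embryos, although the groups overlapped for Gli1. Ptch1 fell by 0.46 (SE 0.09, adjusted p = 0.000235, 6 of 7 embryos), with overlapping groups, and was not called by edgeR on summed UMIs (adjusted p = 0.157). Smo (-0.27, SE 0.21, adjusted p = 0.537) and Gli3 (-0.40, SE 0.24, 0.345) did not pass the test.

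The lung gave a similar list, with 6 of 9 genes called, where 7.1% of all genes were called. Shh was higher in Epi cells by 2.07 (SE 0.28, adjusted p = 2.89e-07). Foxf1 fell by 3.10 (SE 0.22, adjusted p = 7.65e-15), Hhip by 2.20 (SE 0.41, 0.000169), Foxf2 by 1.33 (SE 0.20, 4.03e-06), Gli1 by 0.95 (SE 0.16, 2.86e-05) and Gli2 by 0.80 (SE 0.13, 2.31e-05). Each of the 6 held its direction in 6 of 6 embryos, and only Hhip had overlapping groups. Ptch1 (-0.11, SE 0.10, adjusted p = 0.684), Smo (0.07, SE 0.23) and Gli3 (-0.22, SE 0.25) did not pass.

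In the skin 1 of 9 genes was called, where 8.51% of all genes were called. This was Hhip, which was higher in Epi cells by 2.04 (SE 0.41, adjusted p = 0.000364, 6 of 6 embryos), with no overlap of the groups. Mesenchymal markers had a summed level of 2.72 to 10.7 in Epi skin and 20.8 to 26.8 in Mes skin, and their part in this difference was not tested. Gli2 differed by -0.01 (SE 0.13), Gli1 by 0.07 (SE 0.16), Ptch1 by -0.03 (SE 0.10) and Gli3 by -0.16 (SE 0.25), none of them called.

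In the liver, Foxf1 fell in Epi cells by 1.24 (SE 0.27, adjusted p = 0.000884), Gli3 by 1.03 (SE 0.31, 0.0235) and Gli2 by 0.50 (SE 0.16, 0.0384), so 3 of 9 genes were called, where 10.3% of all genes were called. Only 3 embryos gave Mes liver cells. Shh, Ptch1, Gli1, Hhip and Foxf2 had mean levels of at most 0.10 in both liver sets. With the embryo as a replicate block, Gli3 was at -0.96 (adjusted p = 0.0579). Foxf1 was not called without E9.5 embryo 3 (-0.76, adjusted p = 0.135), Gli3 not without any of the 3 E9.5 embryos (adjusted p = 0.0620 to 0.168), and Gli2 not without E9.5 embryo 1 or 3, an E10.5 embryo (either one) or E11.5 embryo 2 (0.0512 to 0.297). Among HiSeq 4000 embryos Gli3 (adjusted p = 0.255) and Gli2 (0.113) were not called. Mes liver cells were of E9.5 only and Epi liver also had E10.5 and E11.5 embryos, so cell type and day are mixed in these differences. In each of the 3 embryos with both sets, all of E9.5, the 3 called genes were lower in Epi cells. Where Mes liver is compared with other organs, day and organ cannot be told apart.

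**Figure D3:**
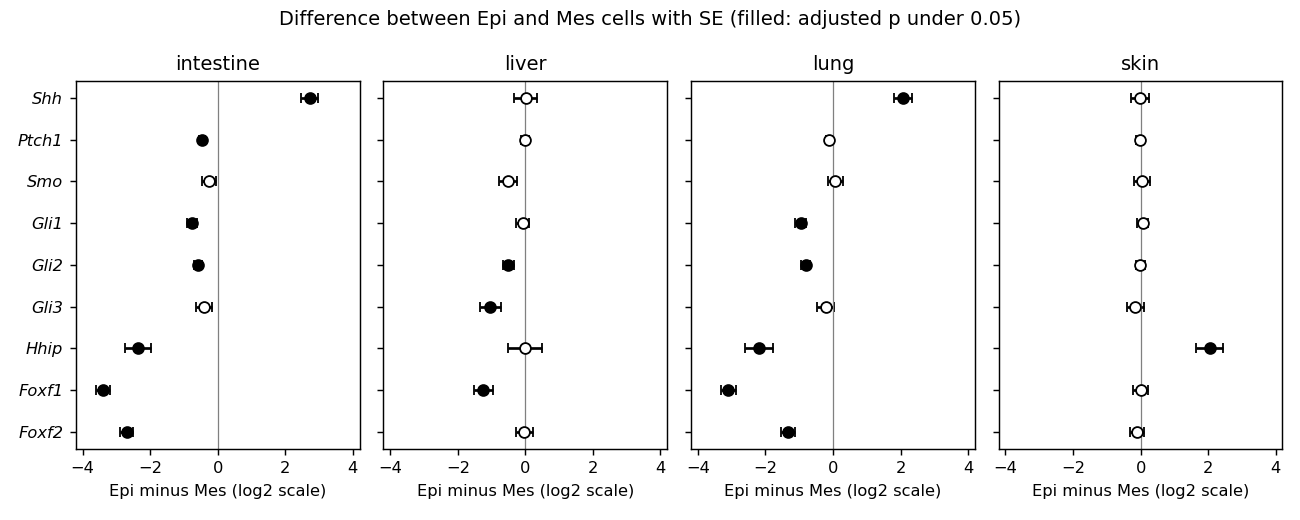
Difference in level between Epi and Mes cells (x axis, log2 scale, Epi minus Mes, bars SE) for the 9 genes (rows) in 4 organs, with filled points for an adjusted p under 0.05 (limma). Shh lies to the right in intestine (2.72) and lung (2.07), Foxf1, Foxf2, Hhip, Gli1 and Gli2 lie to the left in both, and Hhip lies to the right in skin (2.04).

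Other pathway genes were read from lists of 7 genes for ligands and their release, 6 for receptors and binding, 15 for transduction and 10 for response in organ mesenchyme. In the intestine, the second ligand gene Ihh was higher in Epi cells by 1.15 (SE 0.11, adjusted p = 6.67e-11), the only one of 6 ligand and release genes tested to pass. Of 10 response genes 3 fell in Epi cells, where 10.7% of all genes were called: the cell cycle gene Ccnd2 by 3.73, the growth factor gene Bmp4 by 1.88 and Wnt5a, a secreted Wnt, by 1.8. In the lung 6 of 10 response genes were called, where 7.1% of all genes were. Osr1, a zinc finger factor, differed by -3.94 (SE 0.33), while Mycn, a growth-promoting factor, was higher by 2.37 (SE 0.33). The T-box gene Tbx3 fell by 2.22. In the liver 4 of 10 were called, where 10.3% of all genes were, with Nr2f2, a nuclear receptor, at -2.39, the cell cycle gene Ccnd1 at 2.26 and Tbx3 at 1.93. In the skin, where 8.51% of all genes were called, 3 of 6 ligand and release genes passed. Scube1, whose family helps release the ligand, fell in Epi cells by 2.02 and Disp1, which exports it, by 0.97, while Scube2 of the Scube family was higher by 0.31. In the same comparison the binding protein gene Lrp2 was higher by 0.75, 1 of 5 receptor and binding genes. Of 14 transduction genes tested in each organ, the 2 called were Arl13b (0.76) and Evc (-0.54), both genes of the cilium and both in skin. The median difference of the 14 was between -0.14 and -0.11 in the 4 organs, and that of all genes was 0.00 in each.

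The Epi and Mes difference was itself compared between organs, and 24 of 54 comparisons were called. In the comparisons of intestine and lung with skin, the largest difference was that of Hhip, lower by 4.40 in intestine than in skin (-4.40, adjusted p = 1.66e-07) and by 4.24 in lung than in skin (-4.24, 1.09e-06). The share of all genes called was 6.0% for intestine against skin and 4.86% for lung against skin, where 6 of 9 Hedgehog genes were called in each. Between intestine and lung, where 3.38% of all genes were called, 1 gene was called, Foxf2 (-1.37, adjusted p = 0.00102). By edgeR that of Foxf2 had the other sign (0.52, adjusted p = 0.977), and Hhip was called (-4.77, 0.00603). In intestine against liver 4 genes were called where 8.5% of all genes were, in liver against lung 5 where 6.16% were, and in liver against skin 2 where 10.3% were. By edgeR 13 of the 54 comparisons were called, 5 of them not called by limma, and Shh and Foxf2 between intestine and skin were not among them (adjusted p = 0.111 and 0.110). All these comparisons share samples with those of Epi against Mes.

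Among the 4 mesenchymal sets, 17 of 36 comparisons were called. Foxf1, Hhip and Gli1 were called in all 4 sets, higher in intestine and lung and lower in skin and liver, and Smo, Gli3 and Shh in none. These comparisons share samples with one another and with those above. Mes intestine, where 4.36% of all genes were called, was above the mean of the other 3 in 5 genes. Foxf2 was higher by 2.43 (SE 0.16, adjusted p = 1.71e-15), Foxf1 by 2.18 (SE 0.18, 1.31e-12) and Ptch1 by 0.50 (SE 0.08, 1.59e-05). Hhip was higher by 1.24 (SE 0.33, adjusted p = 0.0190), a call lost without E10.5 embryo 1 (1.17, 0.0944), E9.5 embryo 2 (1.12, 0.108) or E10.5 embryo 2 (1.05, 0.141). Gli1 was higher by 0.46 (SE 0.13, adjusted p = 0.0278), a call lost without E10.5 embryo 1 (0.48, 0.0602), E9.5 embryo 1 (0.28, 0.222), E11.5 embryo 2 (0.48, 0.0542) or E10.5 embryo 2 (0.34, 0.222). Mes lung, where 2.32% of all genes were called, was higher in Hhip by 2.41 (SE 0.35, adjusted p = 4.44e-06) and in Foxf1 by 1.97 (SE 0.19, 1.37e-10). Gli1 was higher there by 0.59 (SE 0.14, adjusted p = 0.00626), a call lost without E9.5 embryo 2 (0.56, 0.0533) or E11.5 embryo 1 (0.44, 0.120). The same mesenchyme was set apart by Osr1 (4.51 higher), Tbx3 (2.22 higher) and Tbx2 (1.58 higher), among 5 of 10 response genes called. By edgeR, Gli1 was not called in any of the 4 sets (adjusted p = 0.271 to 0.868), while Shh was called in Mes intestine (log2 fold change 4.80, adjusted p = 4.08e-06) and Mes lung (3.47, 0.00266) and Foxf2 in Mes lung (2.85, 0.00725).

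Mes skin, where 5.18% of all genes were called, had less Foxf1, Foxf2 and Hhip and more Gli2. Foxf1 differed by -2.93 (SE 0.19, adjusted p = 1.8e-16), Hhip differed by -1.71 (SE 0.35, 0.000707) and Foxf2 by -1.33 (SE 0.17, 1.07e-07). By edgeR, Foxf2 (adjusted p = 0.0931) and Gli2 (0.346) were not called. Gli2 was higher by 0.48 (SE 0.11, adjusted p = 0.00373), a call lost without E10.5 embryo 1 (0.37, 0.0747). Gli1 differed by -0.43 (SE 0.14, adjusted p = 0.0486), which became -0.35 (0.118) with the embryo as a replicate block and was not called without any 1 of the 6 embryos that gave Mes skin cells (-0.51 to -0.37, 0.0621 to 0.159). Of 5 receptor and binding genes 2 were higher in Mes skin, Gas1 by 2.24 and Cdon by 1.52, and of 6 ligand and release genes 2, Scube1 by 2.01 and Disp1 by 0.95. In Mes liver, where 3.13% of all genes were called, Foxf2 differed by -1.46 (SE 0.22, adjusted p = 4.92e-06) and Foxf1 by -1.22 (SE 0.24, 0.000564), the latter not called without E9.5 embryo 1 (-0.70, 0.279) and of the other sign by edgeR (1.01, 0.563). Hhip differed by -1.95 (SE 0.44, adjusted p = 0.00417), and by -1.56 (0.0592) with the replicate block and -1.94 (0.0528) without E9.5 embryo 2. Gli1 differed by -0.61 (SE 0.17, adjusted p = 0.0324), a call lost without any of the E9.5 embryos or without E10.5 embryo 1 (0.0679 to 0.237). Among HiSeq 4000 embryos alone, where 1 embryo gave Mes liver cells, none of these 4 passed (adjusted p = 0.0606 to 1.0).

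Among the 4 epithelial sets, 14 of 36 comparisons were called. Epi intestine, where 10.6% of all genes were called, was higher in Shh by 2.39 (SE 0.21, adjusted p = 7.65e-12). Epi lung, where 8.12% of all genes were called, was higher in Shh by 1.24 (SE 0.22, adjusted p = 0.000112). Epi skin, where 15.0% of all genes were called, was lower in Shh, with a difference of -1.81 (SE 0.22, adjusted p = 1.81e-08). There Hhip was higher by 1.86 (SE 0.34, adjusted p = 4.09e-05), Gli2 by 1.09 (SE 0.11, 4.10e-11) and Gli3 by 0.92 (SE 0.21, 0.000950), each in 6 of 6 embryos, while Ptch1 (-0.05, adjusted p = 0.792), Gli1 (0.23, 0.264) and Smo (0.44, 0.107) did not pass. The co-receptor genes Gas1 (3.35 higher) and Cdon (1.6) and the binding protein gene Lrp2 (0.59) were higher in Epi skin as well, among 4 of 5 receptor and binding genes tested. Of the 5 mesenchymal markers, 4 had a mean level of at least 1 in Epi skin, and their part in these levels was not tested. Epi liver, where 22.5% of all genes were called, was lower in Shh (-1.81, SE 0.22), Gli3 (-1.09, SE 0.21) and Gli2 (-0.38, SE 0.11), and in Hhip (-1.11, SE 0.34, adjusted p = 0.0123), which was at 0.0501 without E10.5 embryo 2. The difference of Smo in Epi liver (-0.51, SE 0.19, adjusted p = 0.0401) was not called without E9.5 embryo 2 or 3, either E10.5 embryo or E11.5 embryo 2 (-0.53 to -0.34, 0.0723 to 0.248). Gli2 in Epi intestine (-0.34, SE 0.10, adjusted p = 0.0243) was lost without E9.5 embryo 1 or 3, E10.5 embryo 2 or E11.5 embryo 2 (0.0564 to 0.0944). In Epi lung Gli2 (-0.37, SE 0.11, adjusted p = 0.0207) was lost without E9.5 embryo 3, either E10.5 embryo or E11.5 embryo 2 (0.0634 to 0.0807). By edgeR neither of these Gli2 differences was called (adjusted p = 0.161 and 0.0828). Hhip in Epi intestine (-1.07, SE 0.32, adjusted p = 0.0222) was lost without either E10.5 embryo or E11.5 embryo 2 (0.0568 to 0.0672). These lower calls of Gli2 and Hhip are not independent of the higher calls in Epi skin, which is among the other 3 sets each time. Gli2 was at 1.11 in Epi skin and at 0.04 or below in Epi intestine, liver and lung. Hhip was at 2.27 in Epi skin, 1.12 in Epi lung, 0.08 in Epi intestine and 0.05 in Epi liver. edgeR also called Hhip (log2 fold change 3.72), Foxf1 (2.80) and Gli3 (1.87) in Epi lung, Foxf2 (2.89) and Foxf1 (2.16) in Epi intestine, Gli1 (2.33) and Foxf1 (-3.63) in Epi skin and Foxf2 (-3.44) in Epi liver (adjusted p = 6.66e-06 to 0.0465).

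Cells holding Hedgehog genes together were counted in mesenchyme and in Epi skin. After thinning to 100000 UMIs, all 63 Mes intestine cells held Foxf1, 54 of them held Foxf2 and 49 held Hhip. With Foxf1 in every cell, there were no cells without it to compare. In Mes lung 104 of 111 cells held Foxf1, and 91 of these also held Hhip (87.5%). Hhip was in 71.4% of the few Mes lung cells without Foxf1, and the Foxf1 cells were higher in 2 of 4 embryos. Gli1 and Hhip occurred in the same cell in 42 of 46 Gli1 cells of Mes lung (91.3%), and Hhip was in 83.1% of the cells without a Gli1 UMI. The Gli1 cells were higher in 4 of 6 embryos. In Mes intestine the corresponding shares were 75.0% and 80.0%, with the Gli1 cells higher in 3 of 7 embryos. The pooled shares of the 2 organs thus pointed in opposite directions, neither of them held by every embryo, and this was not tested. In Epi skin 28 of 44 Hhip cells held Gli2 (63.6%), against 35% of the cells without Hhip, in the same direction in 5 of 6 embryos. For the same genes the shares were 36.7% and 42.9% in Mes intestine (Hhip cells higher in 3 of 5 embryos) and 36.5% and 40% in Mes lung (1 of 5).

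To follow the genes from E9.5 to E11.5, a slope per day was fitted for each set, and 4 of 72 slopes were called. Hhip carried 3 of them. In Epi lung, where 2.55% of all genes were called, its level was 0.12 and 0.32 at E9.5 (embryos 2 and 3), 0.49 and 1.52 at E10.5 and 1.31 and 2.93 at E11.5, a slope of 0.95 (SE 0.25, adjusted p = 0.0323). In Mes lung, where 2.08% of all genes were called, it was 2.84 and 2.56, then 3.15 and 2.37, then 4.95 and 4.04, a slope of 0.90 (SE 0.25, adjusted p = 0.0499, and 0.0516 with the identical columns kept, a check chosen after seeing the data). In Mes intestine, where 1.61% of all genes were called, it was 0.31, 3.07 and 1.11 at E9.5, 2.80 and 3.22 at E10.5 and 3.69 and 2.88 at E11.5, a slope of 0.93 (SE 0.23, adjusted p = 0.0205). At E9.5 the 3 Mes intestine embryos were thus far apart, while the 4 later embryos lay together. Foxf2 in Mes intestine was 2.78, 3.04 and 1.49, then 2.99 and 2.88, then 3.88 and 3.62, a slope of 0.65 (SE 0.13, adjusted p = 0.00201). Foxl1, another forkhead gene of the response list, also rose with day in Mes intestine, by 0.42 (SE 0.08, adjusted p = 0.000598).

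These slopes depended on single embryos, and in Epi lung E9.5 embryo 2 and E11.5 embryo 2 gave 3 cells each. For Epi lung the Hhip call was lost without E9.5 embryo 2 (0.93, adjusted p = 0.135), E9.5 embryo 3 (1.02, 0.0606), E10.5 embryo 1 (0.95, 0.0571) or E11.5 embryo 2 (0.58, 0.465). For Mes lung it was lost without E9.5 embryo 3, either E10.5 embryo or E11.5 embryo 2 (0.90 to 0.97, adjusted p = 0.0703 to 0.152), or E11.5 embryo 1 (0.58, 1.0). The Hhip call in Mes intestine was lost without E9.5 embryo 1 (0.60, 0.332), E9.5 embryo 3 (0.80, 0.129), E10.5 embryo 1 (0.92, 0.0517) or E11.5 embryo 1 (0.86, 0.144). Foxf2 was lost without E9.5 embryo 3 (0.42, 0.0701) or E11.5 embryo 1 (0.57, 0.0823). Within HiSeq 4000 embryos the slopes were 0.93 (adjusted p = 0.116), 1.08 (0.0370) and 0.97 (0.0993) for Hhip in Epi lung, Mes lung and Mes intestine, and 1.08 (3.84e-05) for Foxf2. In those HiSeq 4000 fits E9.5 embryo 3 was the only E9.5 embryo, and it had the lowest Foxf2 level of the 7 Mes intestine embryos (1.49). None of the 4 slopes was called by edgeR on summed UMIs (adjusted p = 0.144 to 0.858). The Shh slope was 0.55 (SE 0.18, adjusted p = 0.113) in Epi intestine and -0.57 (SE 0.20, 0.128) in Epi lung, and neither was called. Epi intestine passed without E9.5 embryo 1 (0.76, 0.0233) and with at least 5 cells per mean (0.55, 0.0459). Epi lung passed without E9.5 embryo 3 (-1.07, 0.00203), but its slope had the other sign with at least 5 cells per mean (0.13). In Epi skin the Hhip slope was -0.58 (SE 0.25, adjusted p = 0.264). The other sets had 0 of 9 slopes called by limma and by edgeR, with 2.98% of all genes called in Epi intestine, 5.15% in Epi liver, 3.22% in Epi skin, 1.22% in Mes skin and 0.757% in somite. At an unadjusted p below 0.05 these sets had 2 slopes, those of Shh in Epi intestine and Hhip in Epi skin. Differences of slope between organs were not tested.

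**Figure D4:**
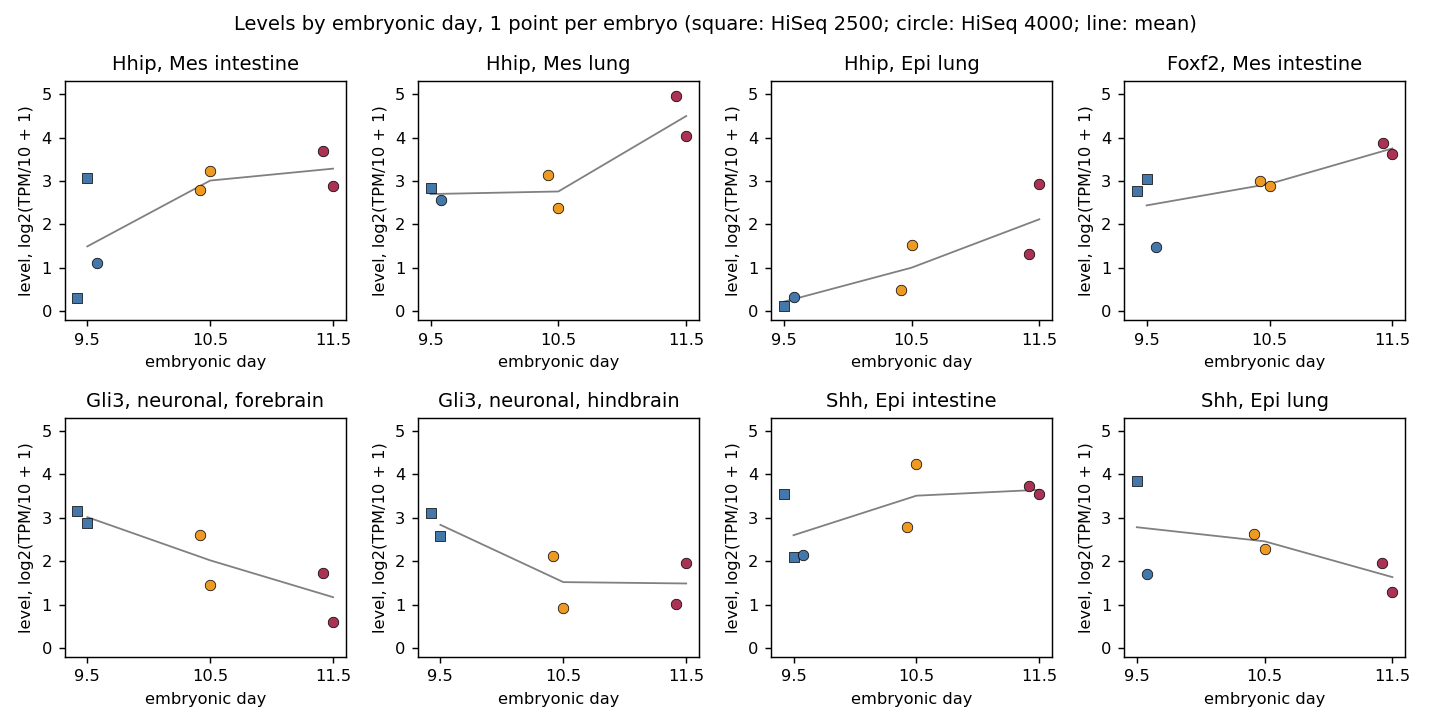
Level per embryo (y axis, log2(TPM/10 + 1)) by embryonic day (x axis) for 8 pairs of gene and set, with squares for HiSeq 2500, circles for HiSeq 4000 and a line through the daily means. Hhip is higher at E11.5 than at E9.5 in Epi lung and Mes lung, and Gli3 in forebrain goes from 3.15 and 2.87 at E9.5 to 1.73 and 0.61 at E11.5.

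In the brain, Smo, Gli2 and Gli3 were present in neuronal cells of both parts, while Shh, Ptch1, Gli1 and Hhip had mean levels of 0.16 or below. Of 7 genes tested between forebrain and hindbrain with day held equal, 0 were called by limma, where 1.24% of all genes were called, and edgeR called 0 as well. At an unadjusted p below 0.05 there was 1, Gli1, with a difference of -0.13 (SE 0.05, adjusted p = 0.250). Foxf1 and Foxf2 were expressed in too few of these cells to be tested. Gli3 fell with day in forebrain. Its levels there were 3.15 and 2.87 at E9.5, 2.59 and 1.44 at E10.5 and 1.73 and 0.61 at E11.5, a slope of -0.92 (SE 0.26, adjusted p = 0.0234), where 16.1% of all genes were called. In hindbrain Gli3 was 3.10 and 2.57, then 2.12 and 0.91, then 1.01 and 1.97, a slope of -0.67 (SE 0.26, adjusted p = 0.132) that was not called, and the 2 slopes differed by -0.25 (SE 0.36, adjusted p = 0.951). Gli1 fell with day in hindbrain from 0.32 and 0.34 to 0.00 and 0.25 and then 0.01 and 0.00, a slope of -0.16 (SE 0.04, adjusted p = 0.0203), where 5.09% of all genes were called. Each was the only 1 of 7 Hedgehog genes called in its brain part. Among all genes, 1910 of the 2287 called slopes in forebrain and 633 of the 722 in hindbrain were falls. The Gli3 call was lost without E9.5 embryo 1 (-0.85, 0.103), E9.5 embryo 2 (-0.97, 0.0904) or E11.5 embryo 2 (-0.69, 0.116), and that of Gli1 without any of the 4 E9.5 and E11.5 embryos (-0.17 to -0.15, 0.0765 to 0.149). Both E9.5 embryos with brain cells carry the HiSeq 2500 label, and within HiSeq 4000 the slopes were -0.85 (adjusted p = 0.580) and -0.12 (0.682). Of the pathway lists, 2 of 8 response genes tested fell with day in forebrain, the cell cycle genes Ccnd1 (-1.85) and Ccnd2 (-1.29). So did 1 of 5 ligand and release genes, Scube1 (-0.78), and 1 of 5 receptor and binding genes, Gpc3 (-0.73). Of 14 transduction genes 1 fell, Evc (-0.34). In hindbrain 1 gene fell in each of these lists but that of ligands and release: Ccnd2 (-1.49), Gpc3 (-0.69) and Csnk1a1 (-0.51).

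Few brain cells expressed Shh. At a level of at least 1 there were 8 of 183 hindbrain cells, 4 in E9.5 embryo 2 and 4 in E10.5 embryo 2, and 2 of 184 forebrain cells. Of the 8 hindbrain cells, 6 also expressed Foxa2, a factor of the floor plate, against 3 of the other 175. Nkx2-2, a factor of the ventral neural tube, was expressed in 5 of the 8 and in 3 of the other 175. Olig2, which marks a more dorsal domain of the ventral tube, was in 0 of the 8 and 1 of the others, and Ptch1, Gli1 and Hhip were each in 1 of the 8. These cells are described without a test, because they come from 2 embryos.

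Somite cells, which give rise to sclerotome under Hedgehog signals, were compared with the mean of Mes intestine, lung and skin. Of 9 genes 3 were called, where 3.31% of all genes were called. Foxf1 fell by 2.47 (SE 0.13, adjusted p = 9.70e-14) and Foxf2 by 1.35 (SE 0.20, 6.73e-05), each in 7 of 7 embryos. Hhip fell by 1.27 (SE 0.33, adjusted p = 0.0269, 6 of 7 embryos), a call lost without E9.5 embryo 2 (-1.30, 0.0527), either E10.5 embryo (-1.28 and -1.22, 0.0743 and 0.107), E11.5 embryo 1 (-1.13, 0.0608) or E11.5 embryo 2 (-1.19, 0.119), and not made by edgeR (0.0855). Somite was not below Mes skin in these 3 genes, a comparison that was not tested. Foxf1 was at 0.04 in somite and 0.01 in Mes skin, Foxf2 at 0.14 and 0.13, and Hhip at 0.72 and 0.23. Against the mean of the 3 Mes sets, Gli2 differed by 0.23 (SE 0.11, adjusted p = 0.326, unadjusted 0.0494), Gli3 by 0.25 (SE 0.20, 0.605), Gli1 by -0.32 (SE 0.16, 0.350) and Smo by -0.02 (SE 0.18, 0.978). The sclerotome genes Pax1 (1.55 higher) and Pax9 (0.68 higher) were higher in somite cells, 2 of 4 genes tested of a sclerotome list. Of 5 receptor and binding genes 2 were higher, the co-receptor gene Gas1 by 1.39 and Boc by 0.58. Gas1 was at 3.10 in somite and at 3.41 in Mes skin, so somite was not above Mes skin in it. Of 10 response genes 3 were called, Bmp4 (-1.40), Osr1 (-1.27) and Ccnd1 (1.05). In 10 neuronal cells of the somite, all from 1 embryo, Gli3 was at 0.56, Smo at 0.48 and Gli2 at 0.47, and Shh and Ptch1 had no UMI, which allows a share of up to 30.0% of cells.

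**Figure D5:**
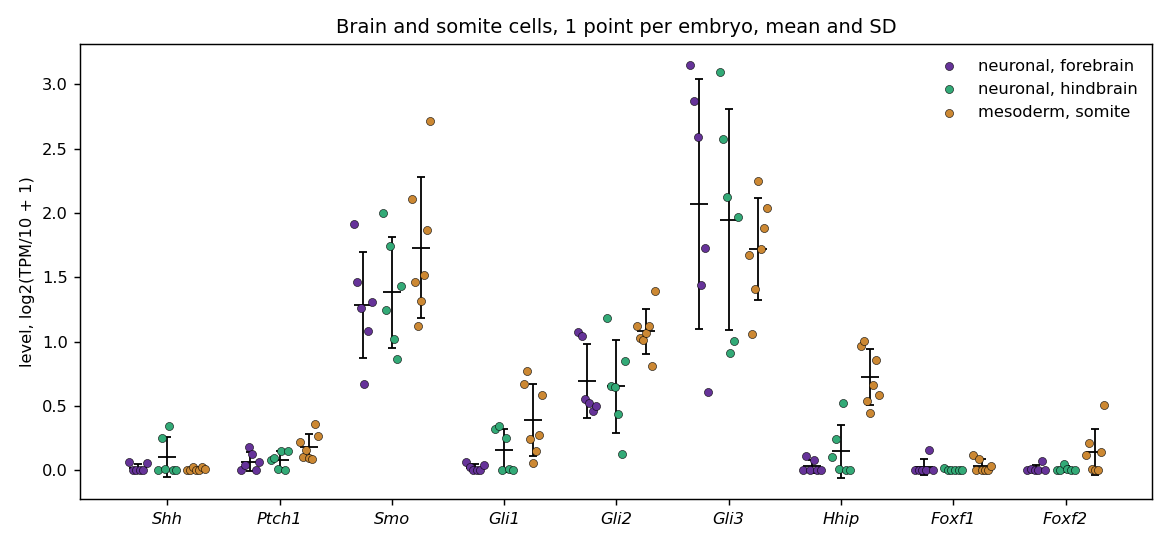
Level per embryo (y axis, log2(TPM/10 + 1)) of the 9 genes (x axis) in neuronal cells of forebrain and hindbrain and mesoderm-derived cells of somite, with mean and SD. Smo, Gli2 and Gli3 are present in all 3 sets, and Hhip has a mean of 0.72 in somite against 0.15 in hindbrain and 0.03 in forebrain.

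Genes with a pattern most like that of a Hedgehog gene were sought over the means of the 12 sets among 11210 genes. For Shh these were Tspan1 (Pearson r = 0.993), Entpd3 (0.992) and the chloride channel gene Cftr (0.991), all with their highest means in Epi intestine and Epi lung. For Foxf1 they were Fendrr (0.973), a long non-coding RNA encoded next to Foxf1, Hoxa4 (0.958) and Rerg (0.954). For Gli1 they were Crispld2 (0.960), Hoxa5 (0.927) and Trps1 (0.922). The 12 points share embryos and libraries, so these values are descriptions of the sets.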

How the data were processed

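Single cells of 8 organs of 7 embryos were measured by single-cell RNA-seq with unique molecular identifiers (UMIs) and cell barcodes. The authors deposited 1 table per sample of CPM values, which they call TPM: a gene's UMIs were divided by the total of its cell and multiplied by 1000000, with no gene length, so levels were not compared between genes. The submitters' processing notes and the study's methods name CASAVA 1.8, TopHat2 2.0.12 on mm10 and HTSeq on uniquely mapped reads, with duplicate UMIs removed. The HTSeq version and annotation are not given in the sources used here. The labels describe another picking and library protocol than the study's methods.

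Whole UMIs were recovered for 100% of values (within 0.05 UMI), and totals equalled the study's in all 1916 cells. Of these, 1819 were kept by the study and 1851 had at least 2000 genes. Cells took their set from the study's annotation, and no doublet caller was run. Identical columns (14 pairs) were counted once, leaving 1902 cells. The embryo was the replicate, with at least 3 cells per mean of log2(TPM/10 + 1), and genes reaching 1 on this scale in at least 3 cells were tested. limma 3.58.1 (R 4.3.3, trended eBayes) gave every adjusted p in the text unless edgeR is named, with Benjamini-Hochberg adjustment within a contrast. A call needs an adjusted p below 0.05.

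All organs of an embryo come from 1 animal, so embryo numbers pair the samples. Over 330 combinations of a pair of sets and an embryo, the correlation of their deviations was -0.263 to 0.481 (median 0.0799). Where both sets had only the same pair of embryos of a day, both embryos gave the same value, so the median holds repeated values. Alternatives were a replicate block, log2(TPM + 1), no filter, at least 5 cells per mean, a minimum difference of 1 (slope 0.5), thinning to 100000 UMIs, HiSeq 4000 embryos alone, each embryo left out, and edgeR 4.0.16 (quasi-likelihood, TMM) on UMIs summed per embryo and set. Keeping identical columns was chosen after seeing the data. The fits were tested on simulated data. Python 3.11.15, numpy 2.4.6, pandas 2.3.3 and scipy 1.17.1 were used.

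The 9 genes and all lists were chosen with earlier results of these data known. All 9 are named, and of other lists at most 3 called genes per list and contrast, those of largest difference. Wilson intervals (95%) and the limits for 0 of n cells (3 counts) cover counting error only.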

Additional observations from a re-analysis of the deposited data

Results flagged for a closer look

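The difference between Epi and Mes cells was compared between organs with limma, and 24 differences of that difference passed (adjusted p given after each value). They are signed as the first organ minus the second. Between intestine and skin, Hhip differed by -4.40 (1.66e-07), Foxf1 by -3.41 (9.20e-12), Shh by 2.74 (8.45e-07), Foxf2 by -2.59 (1.44e-09), Gli1 by -0.83 (0.0112) and Ptch1 by -0.43 (0.0429). Between lung and skin, Hhip differed by -4.24 (1.09e-06), Foxf1 by -3.11 (4.85e-10), Shh by 2.09 (0.000274), Foxf2 by -1.22 (0.00443), Gli1 by -1.02 (0.00255) and Gli2 by -0.79 (0.0055). Ptch1 was not called without E9.5 embryo 2 or 3, E10.5 embryo 1 or 2, or E11.5 embryo 1 (-0.48 to -0.34, 0.0722 to 0.170). Gli1 between intestine and skin was not called without E10.5 embryo 2 (-0.77, 0.0536), nor Gli2 between lung and skin without E9.5 embryo 3 (-0.68, 0.0602) or E11.5 embryo 2 (-0.66, 0.0829). By edgeR, Foxf2 (0.110), Shh (0.111), Gli1 (0.472) and Ptch1 (0.748) were not called between intestine and skin, and Gli2 was (-5.37, 0.000291). Between lung and skin, edgeR did not call Foxf2 (0.108), Shh (0.104) or Gli1 (0.0955).

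Between intestine and lung, limma called only Foxf2, at -1.37 (0.00102). edgeR gave the other sign for it (0.52, 0.977) and called Hhip (-4.77, 0.00603). Between intestine and liver, Shh differed by 2.72 (8.76e-06), Foxf2 by -2.67 (1.19e-08), Hhip by -2.36 (0.0111) and Foxf1 by -2.15 (9.74e-06), and Gli1 (-0.69, 0.0724) passed only with the embryo as a replicate block (-0.79, 0.0220). Hhip was not called without E9.5 embryo 2 (-2.25, 0.0658). By edgeR Foxf1 had the other sign (0.16, 1.0) and Shh (0.948) and Foxf2 (0.467) were not called, and among HiSeq 4000 embryos Foxf1 was at -1.10 (0.211) and Hhip at -2.67 (0.0789). Between liver and lung, Hhip differed by 2.20 (0.0302), Shh by -2.07 (0.00101), Foxf1 by 1.86 (0.000185), Foxf2 by 1.29 (0.00561) and Gli1 by 0.88 (0.0243). With the replicate block Hhip was at 1.95 (0.0661), and neither Hhip (1.92 to 2.19, 0.0603 to 0.128) nor Gli1 (0.75 to 0.93, 0.0504 to 0.127) was called without E9.5 embryo 2 or 3, E10.5 embryo 1 or E11.5 embryo 1. None of these 5 was called by edgeR, where Foxf1 had the other sign (-0.67, 0.910), or among HiSeq 4000 embryos (0.0563 to 0.371), and edgeR called Gli3 (-3.28, 0.0320). Between liver and skin, Hhip differed by -2.04 (0.0347) and Foxf1 by -1.25 (0.0126). Hhip was not called without E9.5 embryo 2 or 3 or either E10.5 embryo (-2.05 to -1.94, 0.0804 to 0.133), nor Foxf1 without E9.5 embryo 2 (-1.28, 0.0570) or 3 (-0.75, 0.270). Hhip was not called among HiSeq 4000 embryos (-1.91, 0.261), and edgeR also called Gli2 (-5.81, 0.000208) and Gli3 (-3.06, 0.0288). Mes liver cells came from E9.5 only, so in these comparisons organ and day cannot be told apart.

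One embryo stood apart in 1 of 43 pairs of gene and set tested for it, and chance flags about 1 in 20. This was Smo in heart, where E10.5 embryo 1 had a level of 1.25 and the next embryo 0.96.

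Apart from the 12 sets, the blood cells and the neuronal cells of somite, 206 cells (109 kept by the study and 97 not) held UMIs of all 9 genes. There were 487 UMIs of Shh in 26 cells, 172 of Ptch1 in 13, 1936 of Smo in 88, 510 of Gli1 in 32, 439 of Gli2 in 36, 1843 of Gli3 in 88, 784 of Hhip in 38, 624 of Foxf1 in 51 and 766 of Foxf2 in 39. Of the Foxf2 UMIs, 202 were in 7 of 13 mesoderm-derived forebrain cells and 213 in 2 of 3 such hindbrain cells. Of the Shh UMIs, 276 were in 5 of 7 intestine cells annotated EC, the epithelial group of the study.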

How the results depend on the processing

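Of 81 called results, 35 were called under every alternative other than the minimum difference of 1, which lost 22. The replicate block lost 4 and gained 1 and changed no other call: 16 Epi against Mes, 15 within Mes, 14 within Epi, 24 differences between organs, 4 slopes, 2 brain slopes and 3 somite results were called with it. Embryo means rest on as few as 3 cells, and Mes liver on 3 embryos.

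Counts of calls moved by more than 1.5 times as follows. With a minimum difference of 1, 11 of the 17 Epi against Mes results, 11 of 17 within Mes, 9 of 14 within Epi and 1 of 2 brain slopes (0.5 per day) were called. With HiSeq 4000 embryos alone, 11 within Mes, 15 of 24 differences between organs, 2 of 4 slopes and 0 of 2 brain slopes were called. edgeR called 13 of the 54 differences between organs, 0 slopes and 0 brain slopes, and over all results it called 17 that limma did not and did not call 33 that limma did. After thinning, 2 slopes and 1 brain slope were called, and without the filter 1 brain slope. Leaving out an embryo gave 14 to 17 Epi against Mes calls, 12 to 15 within Mes, 9 to 15 within Epi (9 without E10.5 embryo 2), 18 to 25 between organs, 1 to 4 slopes (1 without E9.5 embryo 3, E10.5 embryo 1 or E11.5 embryo 1), 0 to 2 brain slopes (0 without E9.5 embryo 1 or 2 or E11.5 embryo 2), 2 to 3 somite and 0 to 0 forebrain against hindbrain.

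Directions reversed in these cases, and the cause was not tested. By edgeR, Foxf1 in Mes liver against the other Mes sets was at 1.01, and the differences between organs were 0.16 for Foxf1 in intestine against liver, 0.52 for Foxf2 in intestine against lung and -0.67 for Foxf1 in liver against lung. The rest were not called results. Shh in Mes lung was at -0.007 without E11.5 embryo 1, and Hhip in Epi lung against the other Epi sets at -0.058 without E11.5 embryo 2. Hhip in intestine against lung was at 0.045 with at least 5 cells, 0.22 without E10.5 embryo 2 and 0.14 without E11.5 embryo 2. The Shh slope in Epi lung was at 0.13 with at least 5 cells, and the Ptch1 slope in Mes intestine at -0.012 with HiSeq 4000 embryos and -0.046 without E11.5 embryo 1.

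Over all genes, edgeR moved the number called by more than 1.5 times in 20 contrasts (0 to 1048 called, against 0 to 2287), HiSeq 4000 embryos in 12 (0 to 927, against 120 to 2287), thinning in 3, at least 5 cells, no filter and log2(TPM + 1) in 2 each, and the block in 1 (113 against 176). edgeR also moved the share of higher calls by over 10 percentage points in 17 of 29 contrasts.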
